A study of Mus musculus with 6 samples.

Results

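The aminoacyl-tRNA synthetases of the cytosol and of the mitochondrion were followed in mammary organoids cultured with and without doxycycline. The members were chosen by name, from a list of the enzymes of both compartments, with earlier results of these data known. Of 36 listed genes, 34 had a value of their own among the 19937 genes measured, 18 of 20 cytosolic and 16 of 16 mitochondrial. Aars was not valued, because its probe set is annotated to both Aars and its neighbour Exosc6. Dars was not found in the probe annotation used here.

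RNA came from mammary epithelial organoids of female FVB mice of matched age carrying ErbB3 DOX-KO, a knockout of Erbb3 that doxycycline induces. The ErbB3 protein is a growth factor receptor related to EGFR. The control group (3 cultures) received no drug, and the DOX group (3 cultures) received 5 µM doxycycline. Both were grown for 14 days in growth factor-reduced Matrigel, and each culture was measured on 1 array of 1 colour. The study describes the cultures of a group as biological replicates, but the labels tie no culture to an animal. All organoids carried the knockout alleles, so an effect of the drug on its own and an effect of Erbb3 loss cannot be told apart. Doxycycline is known to inhibit the mitochondrial ribosome.

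These enzymes join each amino acid to its tRNA and so supply every ribosome. Cytosolic and mitochondrial translation use separate enzymes for most amino acids, all encoded in the nucleus, and 8 cytosolic enzymes assemble with 3 scaffold proteins into the multisynthetase complex. Many cytosolic synthetase genes are known targets of ATF4, the transcription factor translated when amino acids run short or stress kinases phosphorylate eIF2, whereas the mitochondrial set is not described as a block of ATF4 targets.

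Erbb3 itself read 9.78, 9.71 and 9.69 in the controls and 10.36, 9.31 and 9.82 in the DOX cultures (log2 array signal). It was not lower, with a difference of 0.10 (adjusted p = 0.845) over all arrays and 0.37 (adjusted p = 0.105) without DOX replicate 2, and where its probes lie relative to the deleted part was not examined. DOX replicate 2 was unlike the rest. Its correlations with the other 5 arrays ran from 0.816 to 0.865, and its values were compressed, so that in the 10% of genes lowest in the controls the median shift was 0.84 and in the highest 10% it was −1.59. The members' results are therefore given with all 6 arrays and with the 5 arrays left without it, a choice made with the values known. Luminal epithelial markers (Krt8, Krt18, Krt19, Epcam, Cdh1) had a median control level of 11.56, although Krt19 was at 4.80. The basal, fibroblast, endothelial, immune and adipocyte lists had medians of 3.95 to 5.25. Probe sets differ in response, so these are not abundances. With all arrays 0 of these markers passed the test. Without DOX replicate 2, 2 of 5 luminal markers fell (Krt8 by 0.74 and Krt18 by 0.64; −1.01 and −0.64 with all arrays), 1 of 5 basal markers fell (Krt14, by 1.06; −0.96) and 2 of 5 immune markers rose (Cd68 by 1.01 and Ptprc by 0.38; 0.49 and 0.52). Over all genes 12.3% rose and 14.3% fell in these 5 arrays. The other luminal markers ran from −0.28 to −0.07, the other basal markers from −0.23 to 0.24 and the other immune markers from −0.22 to 0.15. None of these passed, and 0 of the fibroblast, endothelial and adipocyte markers passed. The part of cell composition in the differences below was not tested, and in bulk RNA fewer cells of a type and less RNA per cell cannot be told apart.

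The core of the C/EBP-ATF response element, the composite site used by ATF4, was searched for in the members' promoters because it is the sequence through which the amino acid response reaches some of these genes. The letters TGATGNAA were sought on either strand from 250 bases before to 50 bases after each RefSeq start (GRCm38.p6). They occurred in 3.97% of 32851 promoters, or in 1 or more promoters of 4.51% of 27025 genes. Of the measured members with a promoter sequence, 4 of 11 cytosolic genes held them and 0 of 14 mitochondrial genes did. The windows below are printed along the gene's strand, 5′ to 3′, with the match in capitals, and Asns, asparagine synthetase, is shown beside them because its promoter is the textbook example.
Gars, chr6:55037960-55037989, plus strand: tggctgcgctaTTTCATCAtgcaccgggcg
Iars, chr13:49682126-49682155, plus strand: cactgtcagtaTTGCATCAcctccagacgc
Tars, chr15:11399655-11399684, minus strand: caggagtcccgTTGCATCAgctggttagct
Yars, chr4:129189895-129189924, plus strand: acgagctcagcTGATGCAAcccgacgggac
Asns, chr6:7693214-7693243, minus strand: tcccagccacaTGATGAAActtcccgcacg
In Gars, Iars and Tars the match is on the opposite strand, so the capitals show its reverse complement. The matches are descriptions of letters and not of bound sites. In the 5 arrays left without DOX replicate 2, Gars and Iars rose, while Tars and Yars did not pass the test (0.31 and 0.22, against −0.39 and −0.23 with all arrays). Of the 4 cytosolic members that rose there and had a promoter sequence, 2 held the letters. So did 2 of the 5 that did not pass and 0 of the 2 that fell. Cars, Lars, Nars, Rars and Wars also rose but had no promoter sequence to search.

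With all 6 arrays, 0 of the 34 synthetases passed limma's test at an adjusted p under 0.05, and 1, Farsa, had an unadjusted p below 0.05. Over all genes 24 (0.12%) were higher and 450 (2.26%) lower. The median difference, DOX minus control, was −0.13 for the cytosolic and −0.35 for the mitochondrial enzymes on the log2 scale, against 0.02 over all genes. Over the 50% of genes with the highest means it was −0.33. Those genes include all 18 cytosolic and 15 of the 16 mitochondrial members, so 0.02 is no match for their level. All 16 mitochondrial differences were below 0, with a lowest adjusted p of 0.417. The DOX arrays did not overlap the controls and lay below them in 4 of 18 cytosolic members (Farsa, Hars, Kars and Qars) and in 3 of 16 mitochondrial ones (Lars2, Sars2 and Tars2), against 20.3% of all genes. They lay above in 1 cytosolic member, Gars, against 11.7% of all genes.

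Without DOX replicate 2, more cytosolic than mitochondrial members passed the test. Among the cytosolic enzymes 9 of 18 rose and 2 (11.1%) fell, with a median difference of 0.36. Among the mitochondrial enzymes 0 of 16 rose and 1 fell, with a median of −0.18. Over all genes 12.3% rose, 14.3% fell and the median was 0.01. By array values alone, DOX replicates 1 and 3 both lay above every control in 12 of 18 cytosolic members (66.7%) and 2 of 16 mitochondrial ones (12.5%), against 25.4% of all genes. They both lay below every control in 4 of 18 and 3 of 16, against 26.2%. No test of the difference between the compartments was made, because the members were listed with results of these data known.

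**Figure D1:**
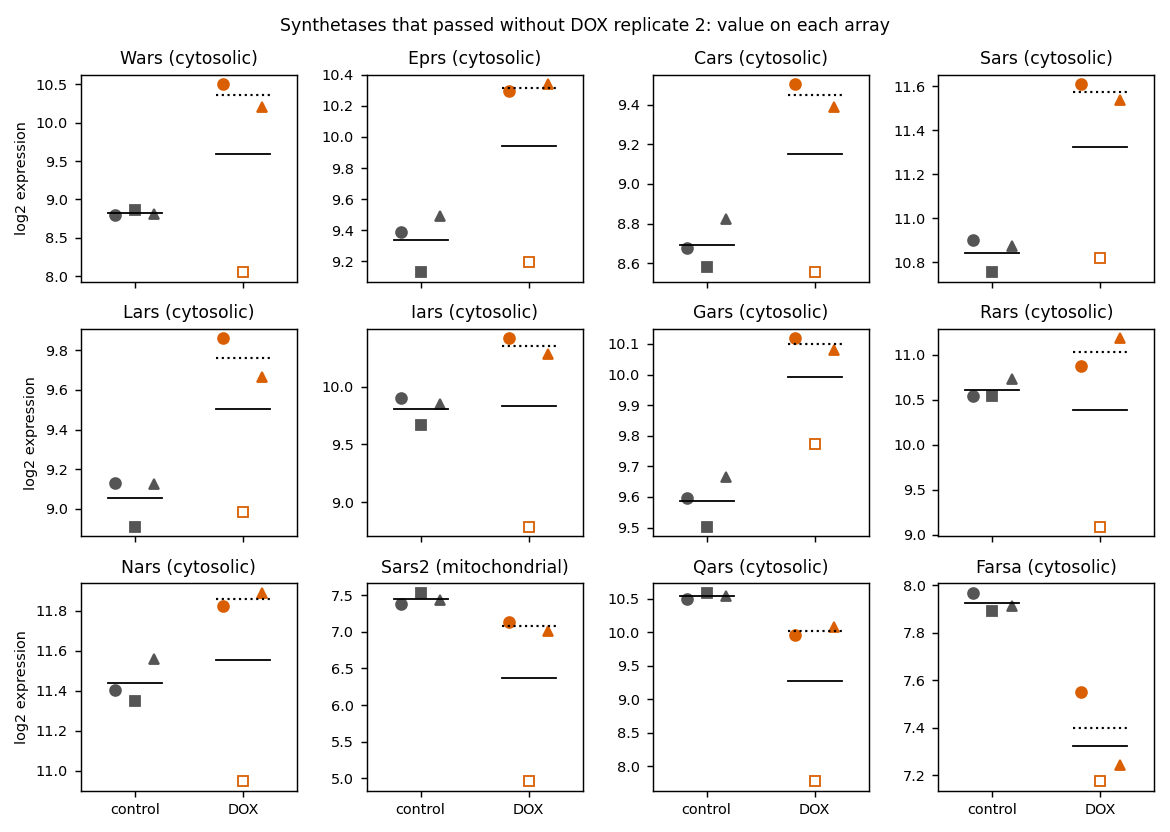
Log2 array signal (vertical axis) of the 12 synthetases that passed without DOX replicate 2, each in its own panel, for control and DOX arrays. Circles, squares and triangles are replicates 1, 2 and 3, and the hollow square is DOX replicate 2. Solid lines are means of 3 arrays and dotted lines the DOX mean without replicate 2. Of all 34 measured members, shown or not, 28 read under the lowest control on DOX replicate 2. The same count over all genes was not made.

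Wars charges tryptophan and is also known as an interferon-inducible gene. It read 8.80, 8.86 and 8.81 in the controls and 10.51, 8.05 and 10.21 in DOX replicates 1, 2 and 3. DOX replicates 1 and 3 were above every control and DOX replicate 2 was below all of them. The difference was 0.76 (SE 0.62, adjusted p = 0.535) with all arrays and 1.53 (SE 0.12, adjusted p = 5.91e-06) without DOX replicate 2, the largest among the members. The interferon list did not move with it: 0 of its 12 measured genes rose and 11 fell in those 5 arrays (9 fell with all arrays), with a median of −2.18 and Ifit3, an interferon-induced antiviral gene, at −3.11.

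Eprs, whose single protein charges glutamate and proline, read 9.39, 9.13 and 9.49 in the controls and 10.29, 9.19 and 10.34 with DOX. Replicate 2 of the DOX group fell within the controls and the other DOX arrays lay above. The difference was 0.61 (adjusted p = 0.448) with all arrays and 0.98 (SE 0.13, adjusted p = 2.65e-04) without it. Eprs is a member of the multisynthetase complex. Lars, the leucine enzyme that is also known as a leucine sensor for mTORC1, read 9.13, 8.91 and 9.13 in the controls against 9.86, 8.98 and 9.67. It followed the same order, with DOX replicate 2 among the controls, and differed by 0.45 (adjusted p = 0.459) and by 0.71 (SE 0.12, adjusted p = 0.00161). Iars, the isoleucine enzyme of the complex, read 9.90, 9.67 and 9.85 against 10.42, 8.79 and 10.28. Here DOX replicate 2 was far below the controls, so the difference was 0.02 (adjusted p = 0.980) with it and 0.54 (SE 0.12, adjusted p = 0.00637) without. A second Iars probe set read higher by 0.33 and 0.85 in the same comparisons. Rars, the arginine enzyme, read 10.54, 10.54 and 10.73 against 10.87, 9.09 and 11.18. Its direction turned on DOX replicate 2, from −0.23 (adjusted p = 0.821) to 0.42 (SE 0.13, adjusted p = 0.0348). Within the 5 arrays the call was lost without DOX replicate 3 (0.27, adjusted p = 0.201), control replicate 1 (0.39, adjusted p = 0.112) or control replicate 2 (0.39, adjusted p = 0.112).

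Qars, the glutamine enzyme of the same complex, went the other way. It read 10.49, 10.59 and 10.53 in the controls and 9.96, 7.77 and 10.08 with DOX, with all DOX arrays below all controls. The difference was −1.27 (SE 0.61, adjusted p = 0.410) with all arrays and −0.52 (SE 0.11, adjusted p = 0.00541) without DOX replicate 2. Of the complex's 7 measured enzymes, 4 rose and 1 fell in the 5 arrays, with a median of 0.42. Outside the complex 5 rose and 1 fell of 11, with a median of 0.31, against 12.3% and 14.3% of all genes. With all arrays 0 passed on either side and both medians were below 0, at −0.17 in the complex and −0.09 outside it. Kars and Mars1, the lysine and methionine enzymes, did not pass (−0.15 and 0.20, and −0.65 and −0.17 with all arrays). Of the complex's 3 scaffolds 1 passed. Aimp2, which holds the complex together, read 8.29, 8.55 and 8.48 in the controls and 8.01, 7.48 and 7.63 with DOX, and it fell by 0.62 (adjusted p = 0.00736) without DOX replicate 2, against −0.73 (adjusted p = 0.179) with all arrays. Aimp1 and Eef1e1 were at 0.25 and 0.07, and at −0.15 and −0.85 with all arrays, and did not pass.

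Among the free-standing cytosolic enzymes, Sars, which charges serine and selenocysteine tRNA, read 10.90, 10.75 and 10.87 in the controls against 11.61, 10.82 and 11.54. DOX replicate 2 lay within the controls. The difference was 0.48 (adjusted p = 0.439) with all arrays and 0.73 (SE 0.11, adjusted p = 7.15e-04) without it. Cars, the cysteine enzyme, read 8.68, 8.58 and 8.82 against 9.51, 8.55 and 9.39, and differed by 0.46 (adjusted p = 0.470) and 0.76 (SE 0.12, adjusted p = 8.54e-04). Nars, the asparagine enzyme, read 11.40, 11.35 and 11.56 against 11.82, 10.95 and 11.89. It differed by 0.12 (adjusted p = 0.829) and 0.42 (SE 0.12, adjusted p = 0.0206). DOX replicate 2 was the lowest array for both genes. The Nars call was lost when DOX replicate 3 (adjusted p = 0.0672), control replicate 1 (0.0745) or control replicate 2 (0.0779) was also left out, at differences of 0.38 to 0.40.

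Gars, the glycine enzyme, was the one member whose 3 DOX arrays all lay above the controls. Its values were 9.60, 9.50 and 9.66 in the controls and 10.12, 9.77 and 10.08 with DOX. It differed by 0.40 (adjusted p = 0.392) with all arrays and by 0.51 (SE 0.11, adjusted p = 0.00596) without DOX replicate 2. Gars and Kars each supply both compartments from 1 gene, and Kars did not pass.

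Farsa, the catalytic subunit of the cytosolic phenylalanine enzyme, read 7.97, 7.89 and 7.91 in the controls and 7.55, 7.17 and 7.24 with DOX, with no overlap. It differed by −0.60 (SE 0.18, adjusted p = 0.207) with all arrays and by −0.53 (SE 0.12, adjusted p = 0.00911) without DOX replicate 2. With DOX replicate 3 left out as well it was −0.37 (adjusted p = 0.057). Farsb, the other subunit of the same tetramer, did not pass (0.08, adjusted p = 0.693; −0.83, adjusted p = 0.555, with all arrays). Vars, the valine enzyme, had the smallest cytosolic difference in the 5 arrays. Its controls read 8.37, 8.58 and 8.57 and its DOX arrays 8.54, 8.35 and 8.36, for a difference of −0.06 (adjusted p = 0.780), and of −0.09 (adjusted p = 0.781) with all arrays. Hars, the histidine enzyme, stood just outside the threshold with −0.31 (adjusted p = 0.0572), and −0.68 (adjusted p = 0.412) with all arrays.

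**Figure D2:**
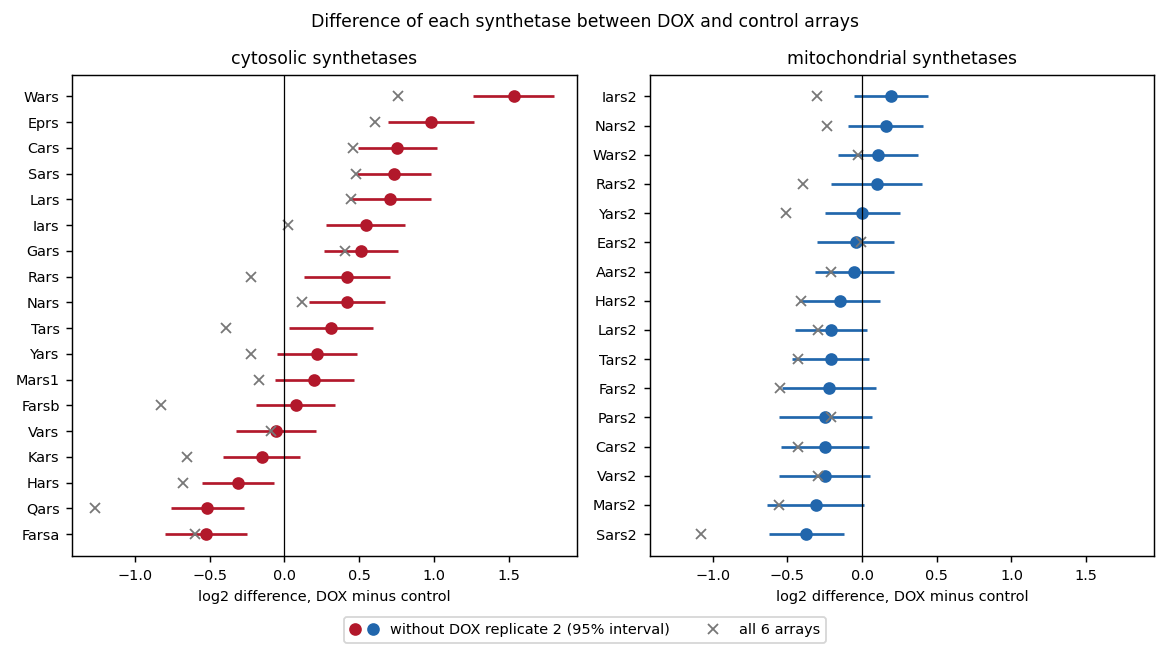
Log2 difference, DOX minus control (horizontal axis), for each synthetase, ordered by the value without DOX replicate 2. Dots with bars are differences and 95% intervals from the 5 arrays left without DOX replicate 2 and crosses are differences with all 6 arrays; the dots run from −0.53 (Farsa) to 1.53 (Wars) in the cytosolic panel and from −0.37 (Sars2) to 0.19 (Iars2) in the mitochondrial one.

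Of the mitochondrial enzymes 1 passed without DOX replicate 2. Sars2, the mitochondrial serine enzyme, read 7.39, 7.53 and 7.43 in the controls and 7.14, 4.96 and 7.02 with DOX, with no overlap. It differed by −1.08 (SE 0.57, adjusted p = 0.439) with all arrays and by −0.37 (SE 0.11, adjusted p = 0.0319) without DOX replicate 2. Within the 5 arrays that call was lost without DOX replicate 3 (−0.31, adjusted p = 0.116) and without control replicate 1 (−0.41, adjusted p = 0.066), 2 (−0.33, adjusted p = 0.106) or 3 (−0.38, adjusted p = 0.0789). Ears2, which charges glutamate, had the smallest difference with all arrays: 6.10, 6.26 and 6.14 in the controls against 6.20, 6.24 and 6.04. Yars2, the tyrosine enzyme, had the smallest without DOX replicate 2, 0.00 (95% interval −0.25 to 0.25). Its values were 7.23, 7.35 and 7.38 in the controls and 7.36, 5.78 and 7.28 with DOX, a difference of −0.51 (adjusted p = 0.544) with all arrays. The other mitochondrial members ran from −0.31 (Mars2) to 0.19 (Iars2) in the 5 arrays, with adjusted p from 0.155 up; with all arrays these 2 were at −0.56 and −0.30. A missed threshold does not show that these genes were unchanged, as their intervals in the plot of differences show.

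DOX replicate 2 read below the lowest control for 14 cytosolic and 14 mitochondrial members. The same count over all genes was not made, so nothing particular to the synthetases is read from it. The median shift from the control mean in DOX replicates 1, 2 and 3 was 0.34, −0.84 and 0.44 for cytosolic enzymes and −0.02, −0.90 and −0.17 for mitochondrial ones. Because the compression of DOX replicate 2 depends on level, each member was also set beside the median of genes in its own 10% step of control level. On that array the median of these step medians was −1.59 for cytosolic and −0.75 for mitochondrial members. Cytosolic members lay above their step's median in 14, 14 and 13 of 18 cases on the 3 DOX arrays, replicate 2 included. Mitochondrial members did so in 7, 7 and 5 of 16.

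**Figure D3:**
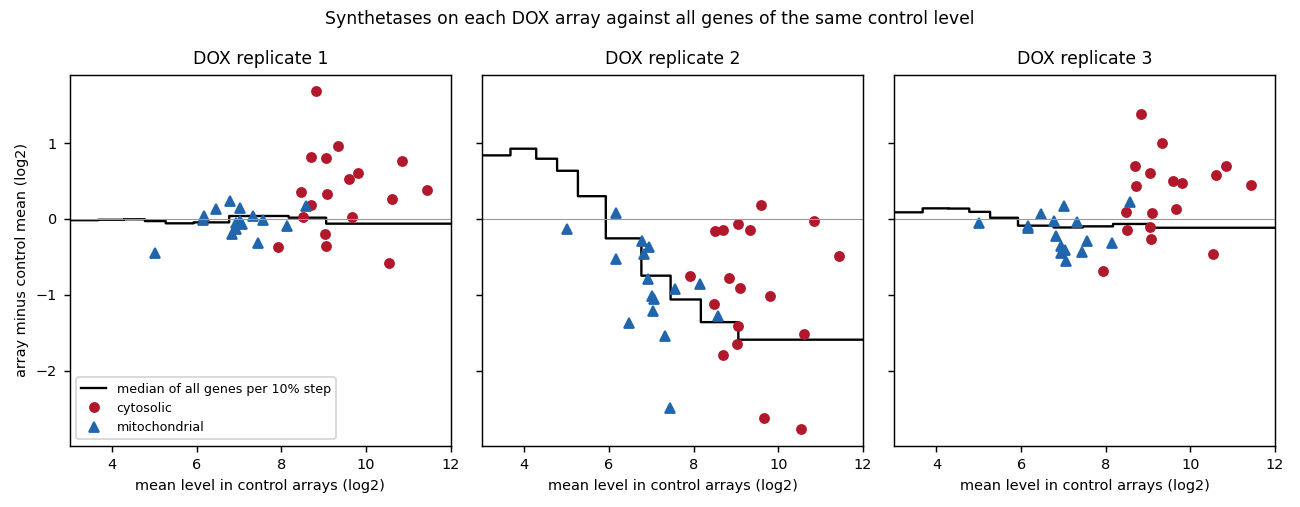
Shift of each synthetase from its control mean (vertical axis, log2) on each DOX array against its mean control level (horizontal axis, log2 signal). The black line is the median shift of all genes per 10% step of control level; on DOX replicate 2 the line falls to −1.59 at the highest step, and 14 of 18 cytosolic members lie above the line.

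The cytosolic enzymes were also split by whether they are described as ATF4 targets. Of 12 described as such and measured, 8 rose and 0 fell without DOX replicate 2, with a median of 0.53, and they lay above their level step's median in 12, 11 and 11 of 12 cases on the 3 DOX arrays. Of the 6 others, 1 rose (Rars) and 2 fell (Farsa and Qars), with a median of −0.23, and 2, 3 and 2 of 6 lay above. With all arrays the medians were 0.26 and −0.66, and 0 members of either subgroup passed. This list was drawn up with results of these data known and is no independent evidence of its direction. ATF4-linked genes outside the synthetases were mixed. Of 25 measured amino acid response genes, 12 rose and 4 fell without DOX replicate 2, against 12.3% and 14.3% of all genes. Their median was 0.46 there and 0.01 with all arrays, where 13 of the 25 were above 0. Slc7a11, the cystine transporter, rose by 4.03, Ddit3, the stress factor CHOP, by 2.41 and Trib3 by 1.79 in the 5 arrays. Psat1, of serine synthesis, fell by 1.39. With all arrays Slc7a11, Trib3 and Psat1 were at 3.21, 1.40 and −2.09 and did not pass. With all arrays 1 of the 25 passed, Ddit3, which read 6.34, 6.38 and 6.34 in the controls and 8.80, 8.85 and 8.73 with DOX (2.44, adjusted p = 0.00203).

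For 12 amino acids with 1 cytosolic and 1 mitochondrial gene measured, the change of the first was set against the change of the second on the same arrays. The cytosolic change was the higher in 11 of 12 pairs with all arrays (median gap 0.34) and in 11 of 12 without DOX replicate 2 (median gap 0.43). By array it was the higher in 11, 8 and 12 pairs in DOX replicates 1, 2 and 3. In the control arrays it was the higher in 7, 5 and 7 pairs. Control shifts are from the controls' own mean, so each pair's gaps cancel over those arrays. The control counts are therefore no measure for the DOX counts. The widest gaps without DOX replicate 2 were Wars over Wars2 (1.43), Sars over Sars2 (1.10), Cars over Cars2 (1.00) and Lars over Lars2 (0.91). The exception was Hars and Hars2, at −0.16. These 2 serve histidine, and neither passed. The pairs share arrays and control cultures and were not tested.

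**Figure D4:**
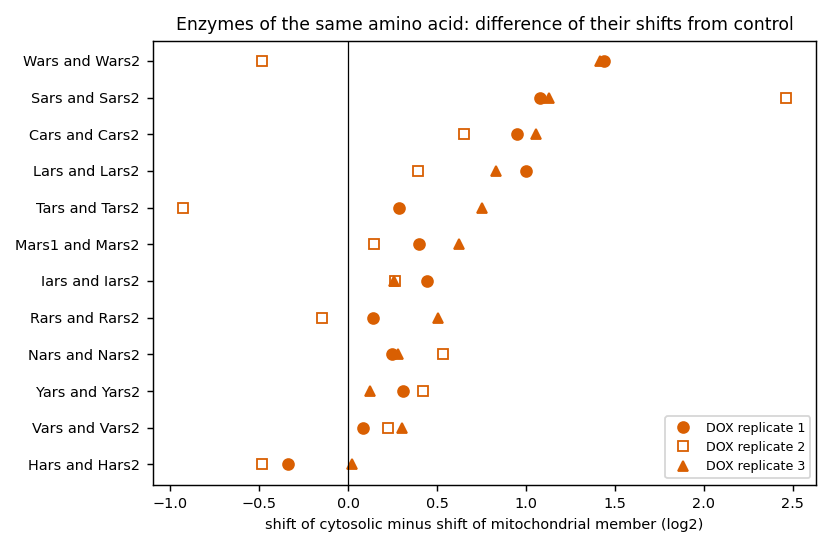
Change of the cytosolic enzyme minus change of the mitochondrial enzyme for the same amino acid (log2), for 12 pairs, on each DOX array. Points above 0 are pairs in which the cytosolic enzyme was shifted upward of its partner, 11 pairs in DOX replicate 1, 8 in replicate 2 and 12 in replicate 3.

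The lists of genes that work beside the synthetases hold few members, and their counts stand beside 12.3% of all genes higher and 14.3% lower; nothing particular to these lists is read from them. Of 12 genes of tRNA maturation, proofreading and export, 2 rose and 1 fell without DOX replicate 2, and the list's median was 0.05, against −0.21 with all arrays. Xpot, the exportin that carries tRNA out of the nucleus, read 8.64, 8.89 and 8.71 in the controls and 10.003, 8.46 and 9.66 with DOX, and rose by 1.09 (adjusted p = 1.79e-04). Trnt1, which adds the CCA end, rose by 0.46 (adjusted p = 0.0129), and Dtd2, which removes mischarged amino acids, fell by 0.59 (adjusted p = 0.00344). Of 4 measured cytosolic elongation factors 0 rose and 0 fell. In the mitochondrion, 1 of 4 measured charging partners rose and 1 fell: Qrsl1 by 0.47 (adjusted p = 0.0238) and Gatb by 0.37 (adjusted p = 0.0334), both subunits of the amidotransferase that makes glutaminyl-tRNA there. Of 5 mitochondrial elongation factors, Gfm1 rose by 0.49 (adjusted p = 0.0142) and Tufm, which delivers charged tRNA to the ribosome, fell by 0.53 (adjusted p = 0.00486). None of the genes in this paragraph passed with all arrays, where Xpot was at 0.63, Trnt1 at 0.08, Dtd2 at −0.89, Qrsl1 at 0.05, Gatb at −0.22, Gfm1 at −0.12 and Tufm at −0.87.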

How the data were processed

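The deposited log2 expression values were used as the authors gave them; the submitters' processing notes name RMA and affy without versions. Of 34760 probe sets, 21640 were annotated to 1 symbol, 1321 to several and 11799 to none. A gene was represented by its 1-symbol probe set with the highest mean, giving 19937 genes, and 34 of 34 member symbols matched the GRCm38.p6 gene table. The test was limma 3.58.1 under R 4.3.3 (two-sided, Benjamini-Hochberg over all genes, threshold 0.05) with all 6 arrays and without DOX replicate 2. The code was tested on data simulated with the spread of the arrays. With all arrays it recovered 1% of 2-fold and 45% of 4-fold changes, and without DOX replicate 2 it recovered 72% and 96%. A member that did not pass with all arrays may therefore still have changed. Members and lists were chosen with earlier results of these data known. Array values are given for members passing in either fit and for the largest and smallest difference in each compartment; of other lists, up to 4 genes with the smallest p are named. Alternatives covered the replicate block, arrays left out, filters, normalization, centring, probe sets, variance model, array weights and thresholds. Arrays carry no counts, so their number limits precision. RMA gives no detection calls. Deviations of same-numbered cultures from their group means correlated at 0.117, 0.194 and 0.0852, and those of differently numbered cultures at −0.185 to 0.116. The numbers were not taken as pairs. Where leaving out arrays left 1 DOX array, that array was assumed to vary like the controls.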

Additional observations from a re-analysis of the deposited data

How the results depend on the processing

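Most calls rested on whether DOX replicate 2 was kept. With all arrays, array weights gave DOX replicates 1, 2 and 3 weights of 0.703, 0.0333 and 3.26, so the weighted DOX mean rested mainly on DOX replicate 3. These weights called 10 cytosolic members higher, 3 lower and 5 mitochondrial members lower. Over all 19937 genes they called 3643 higher and 3752 lower. Cyclic loess called 5 cytosolic members higher, beside 628 of all genes, and a second quantile normalization 3, beside 314. Leaving out 1 array at a time gave 0 to 9 cytosolic members higher, 0 to 2 lower and 0 to 1 mitochondrial members lower. Over all genes these fits called 2 to 2454 higher and 61 to 2855 lower. With array weights Rars read 0.50 and Tars 0.36 and both passed, against −0.23 and −0.39; Rars ran from −0.63 without DOX replicate 3 to 0.42 without DOX replicate 2. With the replicate block 0 members were called in all arrays.

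Starting from the 5 arrays, adding DOX replicate 2 gave 0 cytosolic members higher, 0 lower and 0 mitochondrial lower, with medians of −0.13 and −0.35, and turned Rars to −0.23. Leaving out a further array gave cytosolic medians of 0.31 to 0.44 and mitochondrial medians of −0.17 to −0.021. Without control replicate 1 or 2 the cytosolic calls of Nars and Rars, both higher, were lost. The Sars2 call was lost without any 1 of the controls. Over all genes the fits without control replicate 1, 2 or 3 called 1714, 1550 and 1902 higher and 2323, 2168 and 2282 lower. Centring gave medians of 0.50 and −0.044 beside an all-gene median of 0.14, and 68.6% of all calls were higher against 46.2%. With a second quantile normalization the mitochondrial median was −0.048. The mitochondrial call, Sars2, was lost (0 lower) with centring, that normalization, array weights, the threshold 0.01 and the replicate block. With the block 7 cytosolic members were higher and 2 lower, beside 1841 and 2320 of all genes. Over 16 alternatives within the 5 arrays, Cars, Eprs, Gars, Iars, Lars, Qars, Sars and Wars kept their calls in 16, Farsa in 15, Nars in 11, Rars in 10 and Sars2 in 7. With all arrays, cyclic loess and the second quantile normalization moved the share of calls that were higher from 5.06% to 36.4%, and array weights to 49.3%. The causes of these changes were not tested. Without Gars and Kars, 0 of 16 cytosolic members were called with all arrays (median −0.13) and 8 were higher and 2 lower in the 5 arrays; another planned change to the member list was not run.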

Other observations

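Genes of mitochondrial biogenesis and transcription were measured beside the mitochondrial synthetases. Without DOX replicate 2, 3 of 11 rose and 0 fell, against 12.3% and 14.3% of all genes, and the list's median was 0.04: Ppargc1a, the coactivator PGC-1 alpha, by 1.14, Myc by 0.54 and Tfb1m, a mitochondrial rRNA methyltransferase, by 0.46. Ppargc1a read 7.12, 7.03 and 7.16 in the controls and 8.34, 6.46 and 8.14 with DOX, so DOX replicates 1 and 3 lay above the controls and DOX replicate 2 below. With all arrays 0 of the 11 passed limma's test, and 0 had an unadjusted p below 0.05. There Ppargc1a was at 0.55, Myc at 0.07 and Tfb1m at −0.06, and the list's median was −0.10.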
